A study of Mus musculus with 24 samples.

Results

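Cholesterol is built from acetyl-CoA by a chain of enzymes that passes through mevalonate, squalene and lanosterol. The chain is switched on by SREBP2, a transcription factor encoded by *Srebf2* that waits in the membrane of the endoplasmic reticulum, where the escort protein SCAP and the anchor proteins INSIG1 and INSIG2 hold it while sterol is plentiful. When membrane cholesterol falls, SCAP carries SREBP2 to the Golgi, where the proteases encoded by *Mbtps1* and *Mbtps2* cut it and free the part that activates the synthesis and uptake genes. In the liver, the product feeds membranes, lipoproteins and bile acids.

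The 27 genes described here were 18 synthesis enzymes, 6 genes that encode SREBP2 and the proteins that control it, and 3 genes for cholesterol transport inside the cell. They are defined by a list of gene symbols, which uses no measured value as a criterion but was chosen with earlier results of these data known. Each symbol matched 1 of the 55487 genes in the count table. All 27 passed the filter on low counts in every comparison, although *Idi1* had 0 to 12 counts per library and *Insig1* had 9 to 38. The other 25 had a mean of at least 50 normalized counts, that is, counts scaled for the depth of the library. All 27 are protein coding in GENCODE M21 on GRCm38, and 4 of them (*Fdps*, *Tm7sf2*, *Srebf2* and *Mbtps2*) overlap another gene on the same strand, so that a share of their counts is uncertain. A further 9 (*Hmgcs1*, *Mvd*, *Idi1*, *Fdft1*, *Lss*, *Cyp51*, *Insig2*, *Scap* and *Npc1*) overlap a gene on the other strand only. Because it is not known whether the counting used strand, reads of those pairs could not be told apart.

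AML-12 is an established hepatocyte line from mouse, here grown without dexamethasone in charcoal-stripped serum, and RNA was counted by BRB-seq, a bulk method that sequences the 3′ end of each mRNA. There were 24 libraries, 4 in each of 6 groups. The BSA group was given albumin alone as carrier, and the PAL group palmitate, a saturated fatty acid, at 0.25 mM bound to albumin. The other 4 groups received the same palmitate and, 24 hours before collection, esiRNA, a pool of short RNAs cut by an endoribonuclease that degrades the matching transcript, delivered with lipofectamine. CON received 200 nM against *Egfp*, BMAL1 received 100 nM against *Bmal1* (the clock activator), CHREBP received 100 nM against *Chrebp* (a carbohydrate-responsive activator of lipid synthesis), and BOTH received the pair at a total of 200 nM. Total esiRNA therefore differed between CON and either single knockdown, and was equal between CON and BOTH and between CHREBP and BMAL1. The library names carry positions: column 1 held the untransfected groups, column 2 the transfected groups without *Chrebp* esiRNA, and column 3 those with it. The column can therefore not be told apart from *Chrebp* esiRNA, nor, in CON against PAL, from transfection. Within a column, the row is aligned with palmitate or with *Bmal1* esiRNA. The sources used here do not say that the 4 libraries of a group were separate cultures, so that p-values measure the spread between libraries, which may be technical.

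Total counts ran from 5399700 to 11237474 per library. Of 12 hepatocyte markers, 9 had a mean of at least 5 normalized counts, with *Ahsg*, *Fga* and *Apoa2* below it, while 4 of 5 cholangiocyte markers (*Spp1*, *Krt19*, *Sox9* and *Krt7*) were also present. Endothelial markers had 0 of 6 at that level, and stellate cell and macrophage lists had 1 each. The targeted transcripts were measured at low counts. *Bmal1* (listed as *Arntl*) ranged from 30.1 to 57.5 normalized counts in CON, 22.3 to 32.9 in BMAL1 and 16.6 to 30.9 in BOTH (CHREBP had 28.9 to 43.9), and *Chrebp* (listed as *Mlxipl*) ranged from 29.0 to 44.4 in CON, 22.1 to 32.7 in CHREBP and 11.5 to 21.9 in BOTH. The summed level of 28 interferon response genes ran from 236 to 1489 CPM (counts scaled to a fixed library total) in CON and 271 to 381 in BMAL1, against 4394 to 9059 in CHREBP and 8244 to 14340 in BOTH. CON replicate 1 was the lowest CON library on that measure. BOTH replicate 4 had the lowest mitochondrial share of all 24 libraries, at 1.95% of counts.

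Averaged over the 27 genes, the log2 level was lowest in BSA, highest in PAL, and near the level of BSA again in the 2 groups that received *Chrebp* esiRNA. The mean of log2(normalized count + 1) was 8.05 ± 0.060 in BSA against 8.38 ± 0.073 in PAL, and among the esiRNA groups 8.29 ± 0.036 in CON, 8.26 ± 0.016 with *Bmal1* esiRNA, 8.08 ± 0.061 with *Chrebp* esiRNA and 8.07 ± 0.118 with the pair (SD, n = 4 libraries each). No library of PAL overlapped a library of BSA, and no library of CHREBP or BOTH overlapped one of CON or BMAL1. Without *Idi1* and *Insig1*, the 2 genes of lowest count, the difference of BOTH from BMAL1 went from -0.18 to -0.12 and their libraries overlapped, while those of CON came to lie below PAL without overlap. Over all 27 genes, the levels of CON and PAL overlapped, as did those of BMAL1 and CON and those of BOTH and CHREBP. Over the 18 enzymes alone, BMAL1 lay below CON without overlap, at 8.09 to 8.13 against 8.14 to 8.27, a smaller step than that to CHREBP, at 7.81 to 7.91. Fewer cells of a type and less RNA per cell cannot be told apart in such bulk samples.

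**Figure D1:**
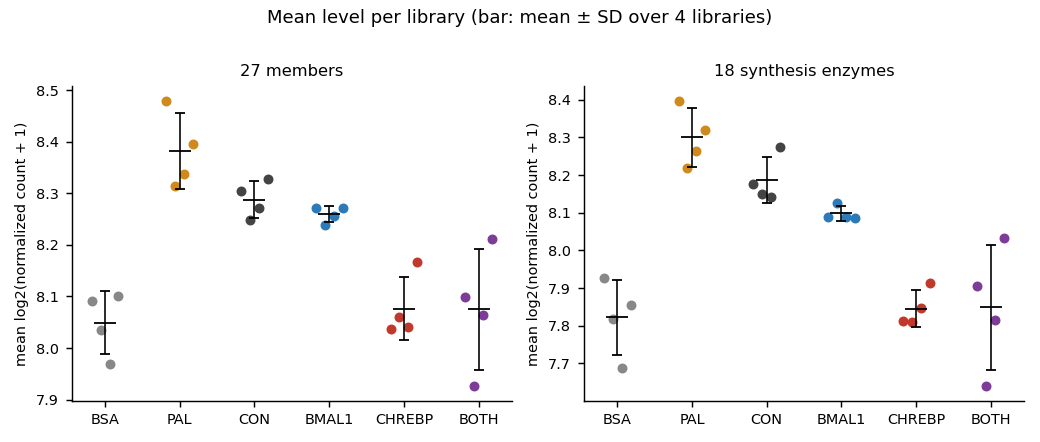
Mean of log2(normalized count + 1) per library, over the 27 genes (left) and over the 18 synthesis enzymes (right), by group. Points are libraries and bars are the mean ± SD of 4 libraries, on axes that do not start at 0; for the 27 genes BSA lay at 8.05 and PAL at 8.38, and the CHREBP and BOTH libraries lay below every CON and BMAL1 library.

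Promoter windows were available from RefSeq (GRCm38.p6) for 22 of the 27 genes, as 28 windows that run from 250 bases before an annotated start to 50 bases after it. They were searched on both strands for 4 sets of letters: TCACNCCAC, which resembles the sterol regulatory element bound by SREBP2; CCAAT, the box bound by NF-Y, a known partner of SREBP2; CACGTG, the E-box bound by the BMAL1-CLOCK pair and contained in the elements bound by CHREBP; and GGGCGG, the GC box bound by SP1. The CCAAT box was present in 18 of 28 windows (64.3%) against 37.4% of all 32851 windows, and the GC box in 82.1% against 35.7%. The E-box was present in 6 windows (21.4%) against 7.15% of all, but 2 of these are overlapping windows of *Scap* that hold the same site. Windows of 1 gene can overlap, so shares were also taken by gene: the E-box was found in 5 of 22 genes (*Dhcr7*, *Hsd17b7*, *Sc5d*, *Insig1* and *Scap*) against 8.09% of all genes, the CCAAT box in 18 against 41.1% and the GC box in 20 against 38.2%. The SRE-like letters occurred in 1 window, that of *Hmgcs1*, where the match was TCACCCCAC, and in 1.24% of all windows. No 2 matches of different motifs overlapped within these windows. A match is a run of letters and was not tested for binding, and a window without a match shows only that these exact letters are absent from it.

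The promoters of 4 genes are printed, each as the 250 bases before the annotated start, 5′ to 3′ on the strand of the gene, with CCAAT (or its reverse complement ATTGG) and CACGTG in capitals. *Msmo1* and *Nsdhl* are shown because they were called with palmitate and, in the other direction, with control transfection, although the second call of each was lost in some alternatives, *Npc2* because it moved against the enzymes in most comparisons, and *Insig1* because, of the genes whose values are given by library below and that had a window, it alone held an E-box.
Msmo1 (chr8:64733579-64733828, minus strand): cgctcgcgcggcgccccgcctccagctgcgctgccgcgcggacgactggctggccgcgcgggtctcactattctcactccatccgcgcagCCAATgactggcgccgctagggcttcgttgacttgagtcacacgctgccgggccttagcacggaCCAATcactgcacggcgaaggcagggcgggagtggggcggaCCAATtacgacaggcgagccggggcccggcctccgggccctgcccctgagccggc
Nsdhl (chrX:72918271-72918520, plus strand): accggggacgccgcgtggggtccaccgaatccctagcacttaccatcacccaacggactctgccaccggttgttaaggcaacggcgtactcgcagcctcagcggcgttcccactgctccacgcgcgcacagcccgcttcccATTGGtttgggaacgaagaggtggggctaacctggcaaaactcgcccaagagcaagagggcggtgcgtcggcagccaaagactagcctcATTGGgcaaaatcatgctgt
Npc2 (chr12:84773113-84773362, minus strand): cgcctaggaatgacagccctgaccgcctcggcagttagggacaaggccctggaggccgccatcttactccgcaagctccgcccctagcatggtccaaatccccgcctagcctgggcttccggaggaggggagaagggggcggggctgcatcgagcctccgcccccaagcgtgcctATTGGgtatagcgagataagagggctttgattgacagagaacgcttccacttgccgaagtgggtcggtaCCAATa
Insig1 (chr5:28071162-28071411, plus strand): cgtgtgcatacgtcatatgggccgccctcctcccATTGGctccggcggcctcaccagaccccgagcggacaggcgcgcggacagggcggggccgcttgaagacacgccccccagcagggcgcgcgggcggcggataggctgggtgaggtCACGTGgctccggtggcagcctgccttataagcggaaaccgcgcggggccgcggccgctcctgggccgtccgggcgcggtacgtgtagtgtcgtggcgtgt
Within these 250 bases, *Msmo1* held 3 CCAAT boxes, *Nsdhl* 2 and *Npc2* 2, and *Insig1* held 1 CCAAT box and 1 E-box. *Msmo1* and *Npc2* both held the CCAAT box and the GC box, which were found in 18 and 20 of the 22 genes with a window.

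**Figure D2:**
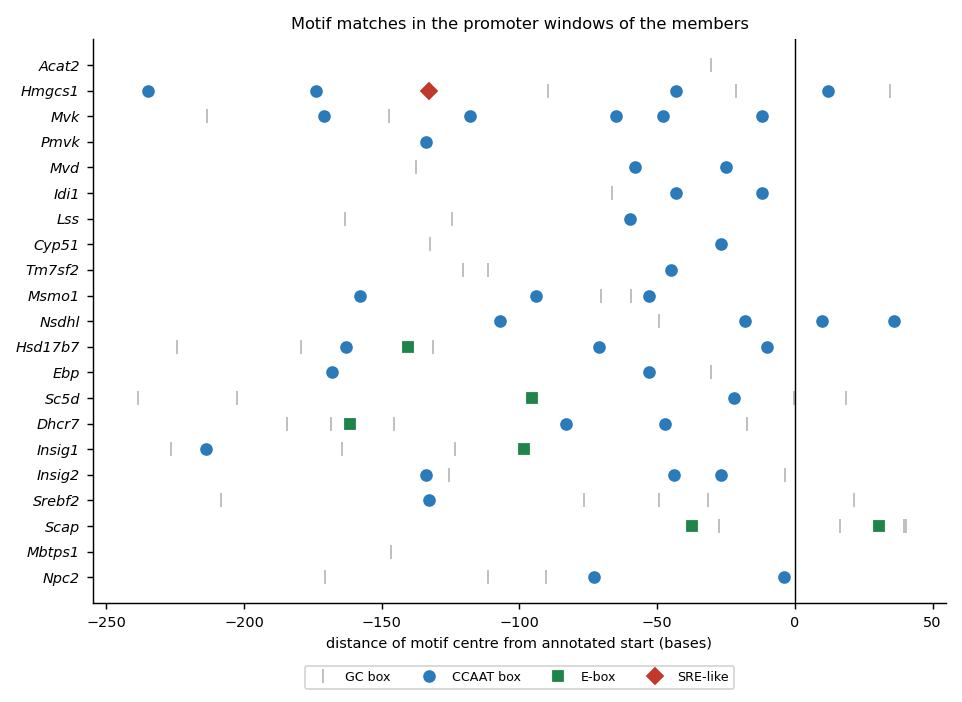
Position of each motif match relative to the annotated start (0, vertical line; negative values lie before it, in bases) in the promoter windows of 21 members with a match, ordered by role. Blue circles are CCAAT boxes, found in 18 genes, green squares are E-boxes, found in 5, the red diamond is the SRE-like match of Hmgcs1, and grey ticks are GC boxes.

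Palmitate against carrier, in cells without transfection, addressed the effect of the fatty acid load used to model steatosis. Synthesis enzymes were higher in PAL, among those past the test by up to 1.77-fold for *Nsdhl*, while the lysosomal cholesterol exporters *Npc1* and *Npc2* were lower. Of the 27 genes, 11 were called higher and 2 lower by the DESeq2 Wald test at an adjusted p (*Padj*) under 0.1, against 6.65% and 7.6% of the 12827 genes tested. The log2 fold change was above 0 in 17 of the 18 enzymes, a direction seen in 50.7% of all genes, and 9 enzymes were called, all higher. The median log2 fold change of the 27 genes was 0.34, beside 0.0048 over all genes tested. In 12 of the 27 every PAL library lay above every BSA library, and in 2 every PAL library lay below, against 6.82% and 8.24% of all genes. With edgeR, 14 of the 27 were called: the same 13 and *Mvk*.

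Of the 7 genes of the early pathway, which turns acetyl-CoA into mevalonate and farnesyl diphosphate, *Hmgcs1* and *Fdps* rose and all 7 had a log2 fold change above 0. *Fdps* encodes the synthase of farnesyl diphosphate, the branch point to sterols and to prenylated proteins. Its normalized counts were 792, 717, 584 and 874 in BSA and 1255, 1064, 877 and 1189 in PAL. The lowest PAL library was only just above the highest BSA library, and the log2 fold change was 0.57 ± 0.11 (SE, *Padj* = 1.21e-05). *Hmgcs1*, which encodes the enzyme that makes HMG-CoA, had 528 to 599.6 in BSA and 653 to 833 in PAL, without overlap, and rose by 0.36 ± 0.09 (SE, *Padj* = 0.00113) on the log2 scale. *Mvk*, the mevalonate kinase, had 115 to 140.2 in BSA and 148 to 183 in PAL, also without overlap, and narrowly missed the threshold at 0.35 ± 0.14 (SE, *Padj* = 0.101). *Acat2* (0.33, *Padj* = 0.197), *Mvd* (0.32, *Padj* = 0.391) and *Pmvk* (0.15, *Padj* = 0.544) were not called. *Idi1*, the isomerase of isopentenyl diphosphate, had 29 counts in the 4 PAL libraries together and 9 in the 4 BSA libraries. The ratio of these counts, scaled for depth, was 3.29, with a 95% counting interval of 1.52 to 7.91 that does not include the spread between libraries (*Padj* = 0.173).

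In the squalene segment, *Fdft1* and *Sqle* rose and *Lss* was not called. *Sqle*, squalene monooxygenase, adds an oxygen to squalene and is a control point of the pathway. It had 486, 418, 522 and 560.2 normalized counts in BSA and 903, 760.4, 774 and 878 in PAL. All 4 PAL libraries were above all 4 BSA libraries, and the log2 fold change was 0.75 ± 0.09 (SE, *Padj* = 2.41e-13). *Fdft1*, squalene synthase, commits farnesyl diphosphate to sterols and had 867, 727, 736 and 888 in BSA against 1197, 983, 1062 and 1085 in PAL. Its groups did not overlap, with a log2 fold change of 0.43 ± 0.08 (SE, *Padj* = 1.04e-05). *Lss*, which closes the rings to give lanosterol, changed by 0.34 (*Padj* = 0.282) with overlapping libraries.

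Of the 8 genes from lanosterol to cholesterol, 5 rose (*Cyp51*, *Tm7sf2*, *Msmo1*, *Nsdhl* and *Ebp*) and 3 were not called (*Hsd17b7*, *Sc5d* and *Dhcr7*). *Nsdhl*, *Msmo1* and *Cyp51* act in the removal of the methyl groups of lanosterol. *Nsdhl* had 179, 146, 146 and 147 normalized counts in BSA and 298, 259.5, 291 and 249 in PAL, a log2 fold change of 0.82 ± 0.13 (SE, *Padj* = 3.74e-09). *Cyp51* had 268, 241, 271 and 235 in BSA and 421, 383, 405 and 479 in PAL, a log2 fold change of 0.74 ± 0.11 (SE, *Padj* = 2.91e-10). *Msmo1* had 750.2, 665, 629 and 839 in BSA and 1196, 1227, 1024 and 1137 in PAL, a log2 fold change of 0.68 ± 0.09 (SE, *Padj* = 2.31e-12). In all 3 genes every PAL library was above every BSA library. *Ebp* encodes the sterol isomerase that follows, and had the lowest spread between libraries of the 27, with a median coefficient of variation within groups of 3.65%. It had 2338, 2297, 2335 and 2371 in BSA and 3197, 2940.2, 3026 and 3152 in PAL, a log2 fold change of 0.41 ± 0.05 (SE, *Padj* = 1.41e-12). *Tm7sf2*, a sterol reductase, changed by 0.27 ± 0.10 (SE, *Padj* = 0.0616) with overlapping libraries, and the call was lost when any 1 of 5 of the 8 libraries was left out. *Dhcr7*, which encodes the enzyme of the last step to cholesterol, was the single enzyme with a log2 fold change below 0, at -0.03 ± 0.09 with a 95% interval of -0.21 to 0.15. *Hsd17b7* (0.41, *Padj* = 0.19) and *Sc5d* (0.23, *Padj* = 0.484) were not called.

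Among the 6 genes of SREBP2 control, *Srebf2* itself rose slightly and the others were not called. *Srebf2* had 1298, 1357, 1271 and 1241 normalized counts in BSA and 1539, 1426, 1402 and 1479 in PAL. The groups did not overlap, but the fold was small, at 1.14 (log2 fold change 0.18 ± 0.06 SE, *Padj* = 0.0321), and the call was lost without BSA replicate 4, PAL replicate 1 or PAL replicate 4. The 2 anchor genes had log2 fold changes of opposite sign, neither past the threshold. *Insig1*, itself a classical SREBP2 target, had 7.71, 11.6, 18.9 and 28.3 in BSA and 47.5, 22.1, 19.0 and 29.5 in PAL (log2 fold change 0.87 ± 0.40 SE, *Padj* = 0.17). *Insig2* had 237, 303, 274 and 299.9 in BSA and 201, 245, 235 and 246 in PAL (log2 fold change -0.25 ± 0.12 SE, *Padj* = 0.186). *Scap*, *Mbtps1* and *Mbtps2* had log2 fold changes of 0.11, -0.0018 and -0.12, and the interval for *Mbtps1*, -0.13 to 0.12, was the narrowest of these.

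All 3 transport genes were called, in both directions. *Stard4* encodes a soluble sterol carrier and had 168 to 195 in BSA and 219 to 267 in PAL, a rise of 0.45 ± 0.12 (SE, *Padj* = 0.004) on the log2 scale. NPC1 and NPC2 work together to pass lipoprotein-derived cholesterol out of the lysosome. *Npc2* had 4021, 3902, 3512 and 3763 normalized counts in BSA and 2748, 2874, 2786 and 2866 in PAL, a log2 fold change of -0.42 ± 0.06 (SE, *Padj* = 3.5e-12). *Npc1* had 219, 198, 194 and 195 in BSA and 177, 148, 157 and 141 in PAL, a log2 fold change of -0.38 ± 0.13 (SE, *Padj* = 0.0357). Neither gene had overlapping groups, and the call of *Npc1* was lost without BSA replicate 1, PAL replicate 2 or PAL replicate 4. The summed level of the 12 hepatocyte markers also differed between these groups, at 1901 to 2127 CPM in BSA and 1435 to 1580 in PAL, and that of the 5 cholangiocyte markers, at 2189 to 2366 and 1841 to 1992. The second sum was carried by *Spp1*, with mean normalized counts of 13065 in BSA and 9310 in PAL, while *Krt19* went the other way, from 2140 to 3083. In the hepatocyte sum *Trf* (9625 and 6407) was lower in PAL and *Hnf4a* (1271 and 1357) was not. The mitochondrial share was 3.66% to 4.19% in BSA and 3.43% to 3.55% in PAL, and the share of reads not aligned 27.2% to 28.0% and 26.4% to 27.4%. *Chrebp* itself had 42.4 to 80.3 normalized counts in BSA and 26.8 to 40.2 in PAL, without overlap. The part of these in the changes of the sterol genes was not tested.

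**Figure D3:**
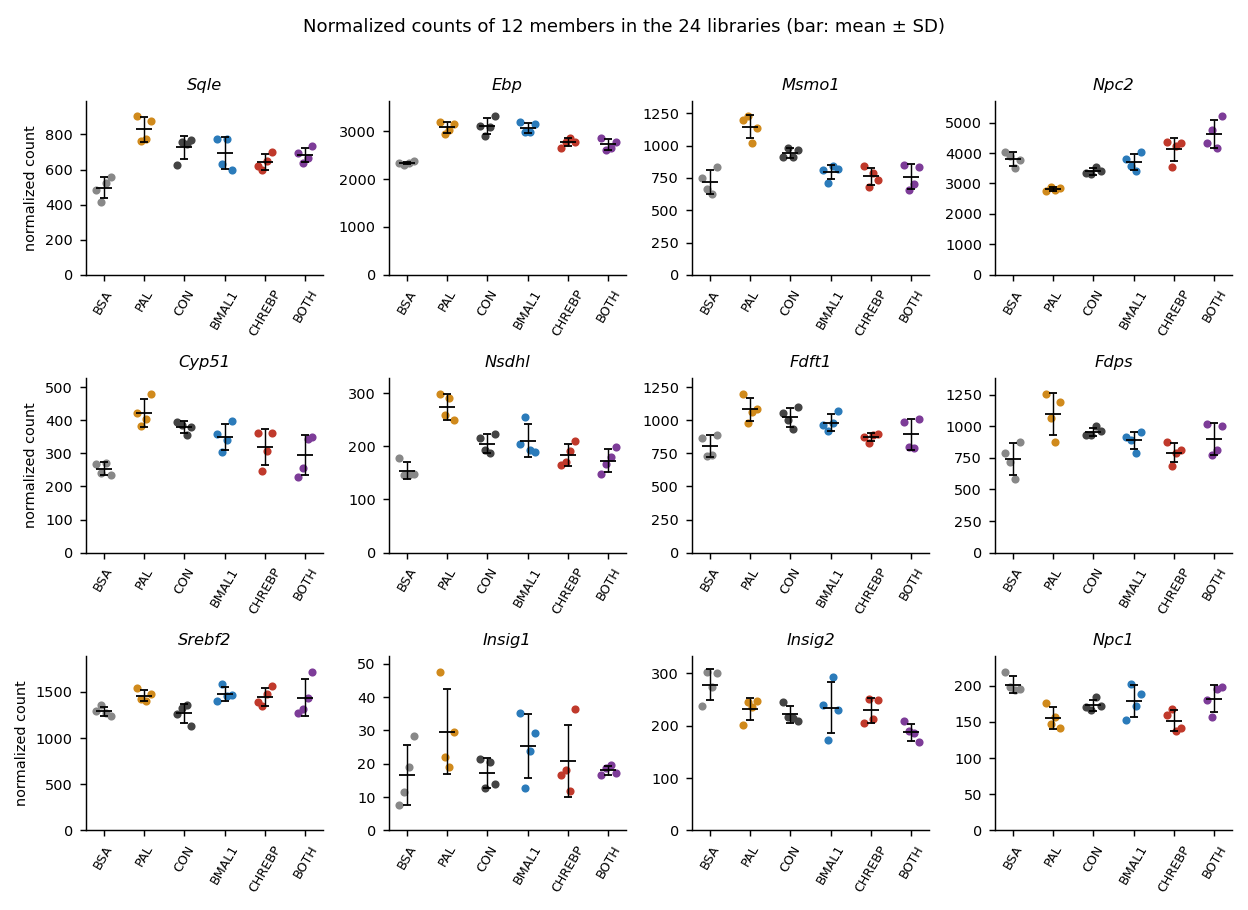
Normalized counts of 12 members in each library, by group, on linear axes that start at 0. Points are libraries and bars are the mean ± SD of 4 libraries; Sqle, Ebp, Msmo1, Cyp51, Nsdhl, Fdft1, Fdps and Srebf2 were higher in PAL than in BSA without overlap, Npc2 and Npc1 were lower, and Insig1 and Insig2 overlapped.

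Control esiRNA against palmitate alone addressed what transfection itself did to these genes. Of the 27, *Npc2* was called higher and *Msmo1* and *Nsdhl* were called lower, against 1.59% and 0.92% of the 12928 genes tested. Without overlap between the libraries, 2 lay higher and 3 lower, against 4.18% and 2.99% of all genes. These changes ran against those of palmitate. *Msmo1* had 912, 984, 913 and 969 normalized counts in CON, all below the PAL libraries, with a log2 fold change of -0.28 ± 0.07 (SE, *Padj* = 0.00534), a call lost with all 24 libraries in 1 fit (*Padj* = 0.105). *Nsdhl* had 216, 194, 188 and 224 in CON, also below PAL, with -0.42 ± 0.11 (SE, *Padj* = 0.0149), a call lost without PAL replicate 3, CON replicate 2 or CON replicate 3. *Npc2* had 3344, 3303, 3536 and 3396 in CON, all above PAL and all but 1 below the lowest BSA library, with 0.26 ± 0.05 (SE, *Padj* = 1.47e-05). *Srebf2* lay lower in CON without overlap and just missed the threshold, at -0.20 ± 0.07 (SE, *Padj* = 0.101). The median log2 fold change of the 27 genes was -0.08. PAL takes part in both comparisons, so the opposite signs are not independent of each other. The interferon genes summed to 113 to 123 CPM in PAL and 236 to 1489 in CON, and transfection and library column cannot be told apart here.

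Silencing of *Bmal1* or *Chrebp* in palmitate-treated cells addressed which genes each factor regulates. With *Chrebp* esiRNA, 3 of the 18 synthesis enzymes were called lower than in CON (2 with edgeR), and with both esiRNAs 6 of 18 (5 with edgeR), while *Npc2* was called higher in both groups. With *Bmal1* esiRNA alone no gene of the 27 was called, and 14 of the 18 enzymes had a log2 fold change below 0, against 51.1% of all genes. In CHREBP against CON, 1 gene was called higher and 3 lower, against 2.65% and 0.771% of the 13883 genes tested. All 18 enzymes had a log2 fold change below 0, a sign shared by 50.9% of all genes, and 8 of the 18 had every CHREBP library below every CON library, against 3.57% of all genes, while 1 of the 27, *Npc2*, lay higher without overlap, against 5.01%. In BOTH against CON, 1 gene was called higher and 7 lower, against 5.99% and 3.75% of all genes, and 17 of 18 enzymes had a log2 fold change below 0, against 52.4% of all. There, 1 of the 27 lay higher and 8 lower without overlap, against 6.42% and 4.5%. In BMAL1 against CON the count was 0 with DESeq2 and 0 with edgeR, 4 of the 27 had an unadjusted p under 0.05, and 0.49% of all genes were called, with 2 higher and 2 lower without overlap, against 2.61% and 2.82%. The median log2 fold changes of the 27 genes were -0.19 in CHREBP, -0.19 in BOTH and -0.04 in BMAL1, beside medians of -0.0037, -0.012 and -0.0050 over all genes. The 3 comparisons share the CON libraries and are set side by side on that basis.

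**Figure D4:**
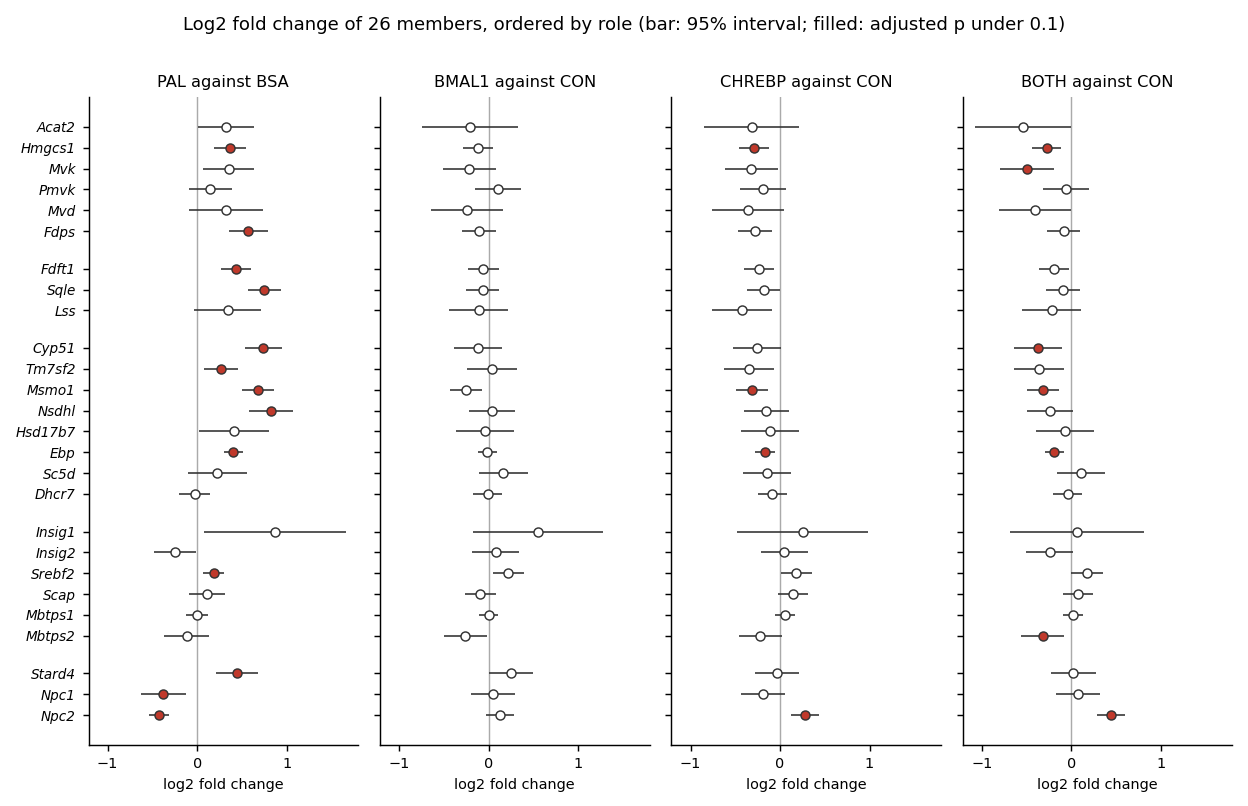
Log2 fold change of 26 members (Idi1, with 0 to 12 counts per library, is left out) in 4 comparisons, ordered from top to bottom by role: early pathway, squalene segment, lanosterol to cholesterol, SREBP2 control, transport. Bars are 95% intervals and filled points have Padj under 0.1; with palmitate most enzymes lie right of 0 and Npc1 and Npc2 left of it, in CHREBP and BOTH the enzymes lie mostly left of 0 and Npc2 right of it, and in BMAL1 no point is filled.

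In the early pathway, *Hmgcs1* fell in CHREBP and in BOTH, and *Mvk* and *Idi1* fell in BOTH. *Hmgcs1* had 667, 654, 628 and 741 normalized counts in CON, 558, 516, 594 and 527 in CHREBP and 551, 603, 577 and 486 in BOTH. All libraries of CHREBP and BOTH were below the lowest CON library, and the log2 fold changes were -0.29 ± 0.08 (SE, *Padj* = 0.0223) and -0.28 ± 0.08 (SE, *Padj* = 0.0178). In BMAL1, *Hmgcs1* lay at 577 to 662, overlapping CON. *Mvk* changed by -0.50 ± 0.15 (SE, *Padj* = 0.021) in BOTH and -0.32 ± 0.15 (SE, *Padj* = 0.36) in CHREBP. *Idi1* had 31 counts in the 4 CON libraries together, 5 in CHREBP and 4 in BOTH. The scaled ratio to CON was 0.182 in CHREBP (95% counting interval 0.0553 to 0.472) and 0.153 in BOTH (0.0392 to 0.433). *Idi1* was called in BOTH (*Padj* = 0.0466), a call lost when any 1 of 7 of the 8 libraries was left out, and DESeq2 gave it no *Padj* in CHREBP because of its low counts. *Fdps* had 934, 929, 1001 and 963 in CON, 918, 892, 790.0 and 955 in BMAL1, 876, 689, 789 and 815 in CHREBP and 1019.9, 777, 809.6 and 1002 in BOTH. CHREBP lay below CON without overlap at -0.28 ± 0.10 (SE, *Padj* = 0.102), and BOTH overlapped CON at -0.09 ± 0.10 (SE, *Padj* = 0.723). *Acat2*, the cytosolic thiolase at the head of the pathway, was at 181 to 205 in 3 BOTH libraries and at 60.1 in BOTH replicate 2, and its log2 fold change of -0.54 ± 0.27 (SE, *Padj* = 0.269) was not called. *Pmvk* and *Mvd* had log2 fold changes between -0.41 and -0.06 in CHREBP and BOTH, none called.

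In the main fit, the squalene segment had no call in any comparison with CON. With the replicate number added to the fit, *Fdft1* was called in CHREBP and in BOTH. *Sqle* had 628, 759, 748 and 769.8 in CON, 772, 634, 773 and 598 in BMAL1, 619, 596, 647 and 702 in CHREBP and 692, 637, 666 and 732 in BOTH. All 4 groups overlapped, and the log2 fold changes against CON were -0.07, -0.18 and -0.09. *Fdft1* had 1057, 1000.1, 936 and 1101 in CON, 962, 921, 979 and 1068 in BMAL1, 873, 828, 885 and 899 in CHREBP and 986, 798, 791 and 1007 in BOTH. The CHREBP libraries lay below all CON libraries, with -0.23 ± 0.09 (SE, *Padj* = 0.146), and those of BOTH overlapped CON. *Lss* was likewise below CON without overlap in CHREBP, at -0.43 ± 0.17 (SE, *Padj* = 0.205), but not in BOTH, at -0.22 ± 0.17 (SE, *Padj* = 0.557).

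From lanosterol onward, *Msmo1* and *Ebp* fell in CHREBP and in BOTH, and *Cyp51* fell in BOTH. *Msmo1* had 839, 679, 790.5 and 738 in CHREBP and 847, 656, 703 and 834 in BOTH, all below the lowest CON library, with log2 fold changes of -0.31 ± 0.09 (SE, *Padj* = 0.0209) and -0.32 ± 0.09 (SE, *Padj* = 0.00945). In BMAL1 it had 812, 713, 839.8 and 818, which also did not overlap CON, and its log2 fold change of -0.25 ± 0.09 (SE, *Padj* = 0.309) was past the threshold only when the 8 libraries of BMAL1 and CON were fitted alone. *Msmo1* was below CON in every library of all 3 knockdown groups. *Ebp* had 3111, 2896, 3095 and 3308 in CON, 3182, 2980.2, 2980.1 and 3144 in BMAL1, 2656, 2765, 2859.8 and 2771 in CHREBP and 2862, 2608, 2645 and 2774 in BOTH. BMAL1 overlapped CON, at -0.01 ± 0.06 (SE, *Padj* = 0.99) with a 95% interval of -0.12 to 0.09, while CHREBP had a log2 fold change of -0.17 ± 0.06 (SE, *Padj* = 0.0698) and BOTH one of -0.19 ± 0.06 (SE, *Padj* = 0.0114). The CHREBP call of *Ebp* was lost with edgeR, and on leaving out any 1 of 6 of the 8 libraries. *Cyp51* had 396, 387, 355 and 379 in CON, 357, 303, 340.0 and 397 in BMAL1, 361, 248, 306 and 361 in CHREBP and 229, 256, 342 and 349 in BOTH. It was called in BOTH, at -0.37 ± 0.14 (SE, *Padj* = 0.0742), but not with edgeR, and not in CHREBP, at -0.26 ± 0.14 (SE, *Padj* = 0.468). *Nsdhl* had 204, 256, 193 and 189 in BMAL1, 165, 171, 191 and 210.4 in CHREBP and 147, 166, 180.2 and 199 in BOTH, and overlapped CON in each. *Tm7sf2* had log2 fold changes in CHREBP (-0.35, *Padj* = 0.226) and BOTH (-0.36, *Padj* = 0.108) without a call. *Hsd17b7*, *Sc5d* and *Dhcr7* had log2 fold changes between -0.15 and 0.17 in the 3 comparisons, and the 95% interval of *Dhcr7* in CHREBP was -0.25 to 0.07.

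Of the control genes, only *Mbtps2* was called in a knockdown group against CON. *Srebf2* had 1264, 1326, 1362 and 1129 normalized counts in CON, 1406, 1587, 1461 and 1465 in BMAL1, 1387, 1343, 1483 and 1562 in CHREBP and 1269, 1319.7, 1434 and 1718 in BOTH. Every BMAL1 library was above every CON library, at 0.22 ± 0.09 (SE, *Padj* = 0.438), and the threshold was passed only when the 2 groups were fitted alone. The log2 fold changes in CHREBP, 0.18 (*Padj* = 0.402), and BOTH, 0.17 (*Padj* = 0.29), were also above 0 and not called. *Insig1* had 21.5, 12.8, 20.6 and 13.9 in CON, 35.3, 12.7, 23.9 and 29.2 in BMAL1, 16.6, 18.1, 11.9 and 36.5 in CHREBP and 16.6, 18.6, 19.6 and 17.3 in BOTH, with 95% intervals of the log2 fold change against CON of -0.18 to 1.27, -0.48 to 0.99 and -0.68 to 0.81. *Insig2* had 246, 217, 216 and 209 in CON, 240.3, 173, 293 and 230.3 in BMAL1, 206, 251, 213 and 248 in CHREBP and 208, 189, 186 and 168 in BOTH. The BOTH libraries all lay below the lowest CON library and the log2 fold change of -0.25 ± 0.14 (SE, *Padj* = 0.341) was not called. *Mbtps2*, the intramembrane protease that makes the final cut, was called lower in BOTH, at -0.32 ± 0.12 (SE, *Padj* = 0.0938), and not with edgeR or when any 1 of 6 of the 8 libraries was left out. *Scap* and *Mbtps1* had log2 fold changes between -0.10 and 0.14 in the 3 comparisons.

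*Npc2* rose in both groups with *Chrebp* esiRNA. It had 3797, 3576, 3399.6 and 4018 normalized counts in BMAL1, 4359, 3538, 4235 and 4332 in CHREBP and 4333, 4759, 4181 and 5203 in BOTH. All CHREBP and BOTH libraries lay above the highest CON library, although CHREBP replicate 2 did so by little, and the log2 fold changes were 0.28 ± 0.08 (SE, *Padj* = 0.0218) and 0.44 ± 0.08 (SE, *Padj* = 1.6e-06). The BMAL1 value was 0.12 ± 0.08 (SE, *Padj* = 0.829). *Npc1* had 171, 166, 184 and 172 in CON, 152, 203, 171 and 188 in BMAL1, 159, 168, 138 and 142 in CHREBP and 180.3, 156, 195 and 198 in BOTH, with overlap throughout and no call. *Stard4* was above CON without overlap in BMAL1, at 0.25 ± 0.13 (SE, *Padj* = 0.645), and had log2 fold changes of -0.03 in CHREBP and 0.02 in BOTH.

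The 4 calls in CHREBP and the 8 in BOTH came from the groups whose interferon genes were highest, and the part of that in the sterol genes was not tested. The summed level of the 12 hepatocyte markers was also lower, at 1351 to 1426 CPM in CHREBP and 1220 to 1418 in BOTH, against 1505 to 1597 for CON and 1497 to 1627 for BMAL1, without overlap, and that of the 5 cholangiocyte markers was 1807 to 1912 in CON, 1750.4 to 1942 in CHREBP and 1674 to 1802 in BOTH, where *Spp1* was not lower (mean 8781 in CON and 9081 in BOTH). The share of reads not aligned was 26.73% to 27.47% in CON, 25.77% to 26.66% in CHREBP and 24.91% to 26.27% in BOTH, with no overlap with CON. Their part was not tested either. Leaving out CON replicate 1, the CON library with the lowest interferon level, gave 3 calls in CHREBP and 5 in BOTH. Leaving out CON replicate 4 gave 2 and 4, leaving out CHREBP replicate 2 or CHREBP replicate 4 gave 1 in CHREBP, and leaving out BOTH replicate 2 gave 5 in BOTH. *Npc2*, *Msmo1* and *Ebp* were called in BOTH whichever library was left out. In CHREBP, the call of *Hmgcs1* was lost without CON replicate 4, CHREBP replicate 2 or CHREBP replicate 4, that of *Msmo1* without CON replicate 2 or CHREBP replicate 2, and that of *Npc2* without CHREBP replicate 1 or CHREBP replicate 4. In BOTH, the call of *Hmgcs1* was lost without CON replicate 4, that of *Mvk* without CON replicate 3 or BOTH replicate 2, and that of *Cyp51* when any 1 of 5 of the 8 libraries was left out.

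Comparisons among the knockdown groups gave few calls. BOTH against CHREBP, which lie in the same library column, differ by *Bmal1* esiRNA and by the total dose, and 0 of the 27 genes were called with DESeq2 or edgeR, with 3 at an unadjusted p under 0.05 (*Insig2*, *Npc1* and *Npc2*) and 0.994% of all genes called. CHREBP and BMAL1 had equal dose but different library columns, and their interferon genes summed to 4394 to 9059 and 271 to 381 CPM. CHREBP against BMAL1 gave 0 calls with either tool and 9 genes at an unadjusted p under 0.05, with 3.82% of all genes called. All 18 enzymes were below 0 on the log2 scale, beside 51.1% of all genes. Without CHREBP replicate 2 the count of calls was 2 (*Scap* and *Stard4*). In BOTH against BMAL1, 1 gene was called higher and 2 lower, against 6.35% and 4.08% of all genes. These were *Npc2* at 0.32 ± 0.08 (SE, *Padj* = 0.00163), *Ebp* at -0.18 ± 0.06 (SE, *Padj* = 0.0228) and *Tm7sf2* at -0.40 ± 0.14 (SE, *Padj* = 0.0549). *Tm7sf2* had 398, 382, 377 and 367 normalized counts in BMAL1 and 304, 209, 276 and 366 in BOTH, and its call was lost when any 1 of 5 of the 8 libraries was left out. Without BOTH replicate 4, the library with the low mitochondrial share, 5 genes were called: *Cyp51* and *Nsdhl* were added to these 3.

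Whether the effect of *Bmal1* esiRNA differed with and without *Chrebp* esiRNA was tested by an interaction term. It was past the threshold in 0 of the 27 genes with DESeq2 or edgeR, against 1.47% of all genes, and 1 gene had an unadjusted p under 0.05. This was *Fdps*, with an interaction of 0.30 ± 0.14 (SE, *Padj* = 0.437) on the log2 scale and a 95% interval of 0.03 to 0.56. The intervals were wide beside the fold changes themselves, for example -0.01 to 0.50 for *Msmo1* and -0.75 to 0.01 for *Insig2*. That of *Ebp*, -0.16 to 0.15, was narrower, but its log2 fold changes against CON were also small, at -0.17 in CHREBP and -0.19 in BOTH. Without BOTH replicate 4 the interaction was called for 1 gene, *Srebf2*. The likelihood ratio test over the 4 esiRNA groups, the test the study names, called 6 of the 27 genes, beside 9.92% of all genes, and edgeR called 5, without *Tm7sf2* (*Padj* = 0.108): *Npc2* (*Padj* = 5.83e-06), *Ebp* (*Padj* = 0.00477), *Msmo1* (*Padj* = 0.013), *Hmgcs1* (*Padj* = 0.0172), *Idi1* (*Padj* = 0.02) and *Tm7sf2* (*Padj* = 0.0414). Leaving out 1 library moved this count between 4 and 9, with 4 without CON replicate 2 or CON replicate 4 and 9 without BOTH replicate 4.

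Across the 6 groups, 13 of the 27 genes had their highest mean in PAL and 11 their lowest in BSA, and 13 had their lowest in CHREBP or BOTH. The ratio of the highest to the lowest group mean ran from 1.05 for *Mbtps1* and 1.08 for *Dhcr7* to 1.77 for *Nsdhl* and 1.78 for *Insig1*, apart from *Idi1*. *Npc2* had the order PAL, CON, BMAL1, BSA, CHREBP and BOTH from lowest to highest, with means of 2819 ± 61.3, 3395 ± 102, 3698 ± 268, 3799.6 ± 219, 4116 ± 389 and 4619 ± 459.7 (SD, n = 4). In that order the libraries of PAL and CON did not overlap, and those of each later pair of neighbours did. *Msmo1* had means of 721 ± 93.5 in BSA, 760.2 ± 95.2 in BOTH, 762 ± 69.0 in CHREBP, 796 ± 56.4 in BMAL1, 945 ± 37.4 in CON and 1146 ± 89.5 in PAL. Its 4 lowest groups overlapped as neighbours, and CON and PAL each stood above the group before. The spread between libraries, as the median over groups of the coefficient of variation, ranged from 3.65% to 66.8% between genes, with a median of 9.66%. Levels were not compared between genes.

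A further 35 genes of sterol biology, outside the 27, were read from the same fits. With palmitate, 3 rose and 6 fell (8.57% and 17.1% of the 35), against 6.65% and 7.6% of all genes tested. The rises were *Vapb* (0.40, *Padj* = 0.0394), a membrane contact protein, *Tmem97* (0.38, *Padj* = 0.0599), which binds NPC1, and *Lbr* (0.34, *Padj* = 0.000646), a sterol reductase of the nuclear envelope. The falls were *Lipa* (-0.52, *Padj* = 7.37e-12), the lysosomal acid lipase that frees cholesterol from its esters, *Rnf145* (-0.92, *Padj* = 0.0248), *Stard5* (-0.45, *Padj* = 0.0929), *Lrp1* (-0.33, *Padj* = 0.0799), *Stard3* (-0.26, *Padj* = 0.0474) and *Osbp* (-0.25, *Padj* = 0.0317). *Lipa* had means of 1159 ± 70.8 in BSA and 800.2 ± 26.8 in PAL, without overlap, so that it and the 2 lysosomal exporters were all lower with palmitate.

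With *Chrebp* esiRNA, *Soat1*, *Rnf139* and *Lipa* rose, 3 of 35 against 2.65% of all genes tested. *Soat1*, which esterifies cholesterol for storage, had a log2 fold change of 0.75 ± 0.13 (SE, *Padj* = 9.95e-07) in CHREBP and 0.90 ± 0.13 (SE, *Padj* = 2.52e-10) in BOTH against CON, without overlap in either. *Rnf139*, a ubiquitin ligase of the endoplasmic reticulum that acts in sterol-regulated degradation, rose by 0.55 ± 0.12 (SE, *Padj* = 0.000203) in CHREBP and 0.92 ± 0.12 (SE, *Padj* = 6.63e-13) in BOTH. It was the single gene of the 35 with a called interaction, against 1.47% of all genes, at 0.56 ± 0.17 (SE, *Padj* = 0.0552), which edgeR did not call (*Padj* = 0.147). *Lipa* rose by 0.25 (*Padj* = 0.0894) and 0.57 (*Padj* = 2.47e-09), the first of which edgeR did not call (*Padj* = 0.142). In BOTH, *Stard5* (0.54, *Padj* = 0.033), *Stard3* (0.35, *Padj* = 0.0165), *Erlin2* (0.32, *Padj* = 0.00671) and *Scarb2* (0.30, *Padj* = 0.0477) also rose and *Lrp1* (-0.35, *Padj* = 0.0716) and *Scp2* (-0.30, *Padj* = 0.0239) fell, giving 7 rises and 2 falls of 35 (20% and 5.71%), against 5.99% and 3.75% of all genes. In BMAL1, where 0.49% of all genes were called, *Erlin2* alone was called, at 0.30 ± 0.09 (SE, *Padj* = 0.0963), and not with edgeR (*Padj* = 0.301). In CON against PAL, with 1.59% of all genes called higher and 0.92% lower, *Soat1* rose by 0.46 (*Padj* = 0.0437) and *Vapa* fell by 0.18 on the log2 scale (*Padj* = 0.0368). *Soat1* and *Rnf139* were highest in the groups with the highest interferon levels, and the part of that in their change was not tested. In BOTH against BMAL1, 7 of the 35 were called higher and 3 lower, against 6.35% and 4.08% of all genes, and in CHREBP against BMAL1 3 higher and 1 lower, where 3.82% of all genes were called in either direction. In BOTH against CHREBP *Lipa* alone was called, at 0.31 ± 0.08 (SE, *Padj* = 0.0342), against 0.994% of all genes, and edgeR did not call it (*Padj* = 0.124).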

How the data were processed

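RNA was measured by BRB-seq in 24 AML-12 libraries, 4 in each of 6 groups taken from the sample labels. The deposited values were raw counts per gene, made by the authors with STAR and HTSeq on mm10; featureCounts and DESeq2 are also named in the submitters' processing notes, and tool versions, strand setting and handling of molecular identifiers are not given in the sources used here. The 5 HTSeq summary lines were left out of library sizes and tests. Reads not aligned made up 24.9% to 28.0% of the column sum, and reads in no gene 5.11% to 6.47%. Total counts per library were 5399700 to 11237474. Over 36 pairs of replicates, the chi-square statistic per degree of freedom was 2.69 to 23.1, so that no pair agreed within sampling noise.

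Counts were tested with DESeq2 1.42.0 in R 4.3.3, by the Wald test with Benjamini-Hochberg adjustment over all tested genes and a threshold of 0.1, after removal of genes whose counts summed to under 25 in the libraries fitted. BSA and PAL, CON and PAL, and the 16 esiRNA libraries were fitted separately. The interaction of both esiRNAs and the likelihood ratio test over the 4 esiRNA groups used the last fit. Normalized counts were scaled by size factors of all 24 libraries, and the mean level used log2(normalized count + 1). The 95% counting intervals cover counting error only. Alternatives were edgeR 4.0.16 (quasi-likelihood test, TMM), TMM size factors in DESeq2, other filters, other sets of fitted libraries, a replicate block, a threshold of 0.05 and leaving out each library. The scripts were tested on simulated data.

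All 27 genes are accounted for. Values by library are given for at most 12: those called in PAL against BSA, CHREBP against CON or BOTH against CON without overlap of the groups, in the order of their smallest adjusted p, plus *Srebf2*, *Insig1*, *Insig2* and *Npc1*. Values by library were also given, by a choice made after they were seen, for *Hmgcs1* in CON, CHREBP and BOTH and for *Tm7sf2* in BMAL1 and BOTH. At most 4 promoters were printed from among these. The members, the 35 other sterol genes and the marker lists were chosen with earlier results of these data known. Annotation was GENCODE M21, and promoter sequences came from RefSeq on GRCm38.p6 (windows matched for 22 of 27 genes). Genes of this pathway outside the list were not analysed here beyond the 35.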

Additional observations from a re-analysis of the deposited data

Results flagged for a closer look

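Among the 27 genes and the mean levels of the 27 genes and of the 18 enzymes, 174 groups of 4 values were looked at, and 9 held a library that lay apart, with a gap to its nearest neighbour of more than 0.829 of the range of the group. Chance gives this in about 1 of 20 groups. For *Acat2*, BOTH replicate 2 had 60.1 normalized counts and the other BOTH libraries had 181 to 205. For *Hmgcs1*, BSA replicate 3 had 599.6 and the others 528 to 539. For *Sqle*, CON replicate 1 had 628 normalized counts and the other CON libraries had 748 to 769.8. For *Nsdhl*, BSA replicate 1 had 179 and the other BSA libraries had 146 to 147. For *Mbtps2*, CON replicate 4 had 257 and the others 218 to 225. For *Npc2*, CHREBP replicate 2 had 3538 and the other CHREBP libraries had 4235 to 4359. *Idi1*, at very low counts, had 13.9 in CON replicate 4 beside 4.49 to 5.39 in the others, and 2.72 in BMAL1 replicate 1 beside 5.31 to 5.75. The mean log2 level of the 18 enzymes was 8.13 in BMAL1 replicate 2 and 8.09 in each of the other BMAL1 libraries. The gaps ran from 0.836 to 0.967 of the range.

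The calls of *Hmgcs1* and *Nsdhl* with palmitate held when the BSA library that lay apart was left out. The call of *Mbtps2* in BOTH against CON was lost without CON replicate 4, as was that of *Idi1*. Without CHREBP replicate 2, *Npc2* was the single gene of the 27 still called in CHREBP against CON.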

How the results depend on the processing

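Of the 31 calls of single genes, none reversed its direction under any alternative run, and 28 of them were past the threshold with edgeR. Those lost with edgeR were *Ebp* in CHREBP against CON and *Cyp51* and *Mbtps2* in BOTH against CON. With all 24 libraries fitted, the calls of *Tm7sf2* and *Srebf2* in PAL against BSA, *Msmo1* in CON against PAL and *Idi1* in BOTH against CON were lost. With the pair of groups alone, those of *Idi1*, *Cyp51* and *Mbtps2* in BOTH against CON and *Ebp* in BOTH against BMAL1 (*Padj* = 0.119) were lost. *Idi1* was also lost with TMM size factors and with no filter. The number of the 27 genes called in CHREBP against BMAL1 was 0, and became 1 (*Tm7sf2*) with a replicate block, 1 (*Ebp*) with no filter on low counts, 2 (*Tm7sf2* and *Ebp*) with all 24 libraries fitted and 2 (the same genes) with the pair of groups alone. With the pair of groups alone, the count became 2 in BMAL1 against CON and fell from 8 to 5 in BOTH against CON. The cause was not tested, and the counts under alternatives in this section are given without the share of all genes called. Without *Idi1* and *Insig1*, the 2 members under 50 normalized counts, the difference of the mean log2 level was 0.26 in place of 0.33 for PAL against BSA, -0.16 in place of -0.21 for CHREBP against CON and -0.12 in place of -0.18 for CHREBP against BMAL1, and likewise -0.12 in place of -0.18 for BOTH against BMAL1, whose libraries then overlapped. CON against PAL went from -0.09 with overlap to -0.07 without it. Only the choice of members differed. Depth limits both genes, at 0 to 12 and 9 to 38 counts.

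Leaving out 1 library gave 10 to 13 calls in PAL against BSA, 2 to 4 in CON against PAL, 0 in BMAL1 against CON and in BOTH against CHREBP, 1 to 4 in CHREBP against CON, 4 to 8 in BOTH against CON, 2 to 5 in BOTH against BMAL1, 0 to 2 in CHREBP against BMAL1, 0 to 1 for the interaction and 4 to 9 in the likelihood ratio test.

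Libraries of different groups share replicate numbers. Deviations from the group means of libraries with the same number correlated between -0.059 and 0.114, over 0.1 in 1 of 32 pairs. Such weak correlations cannot show whether libraries with the same number were handled together. With the replicate block, 10 genes were called in PAL against BSA, 2 in CON against PAL, 5 in CHREBP against CON and 8 in BOTH against CON. The calls lost with the block were *Tm7sf2*, *Srebf2* and *Npc1* in PAL against BSA, *Nsdhl* in CON against PAL, *Ebp* in CHREBP against CON, and *Idi1* and *Mbtps2* in BOTH against CON. Those gained were *Fdps* and *Fdft1* in CHREBP against CON and *Fdft1* and *Tm7sf2* in BOTH against CON.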
